A study of Mus musculus with 4 samples.

Results

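Monocytes and macrophages made up 215 of the 68087 cells kept from CD45+ preparations of the mouse small intestine, or 0.316%. They were chosen by their transcripts and not by clustering. A member had at least 3 UMIs (unique molecular identifiers, each a counted mRNA molecule) of Lyz2 and at least 1 UMI over Ms4a6c, Chil3, Plbd1, Csf1r and Ccl6. It had 0 UMIs of the T cell genes Cd3e, Cd3d and Cd3g, the B cell gene Cd79a and the plasmacytoid dendritic cell gene Siglech. A cell was kept if it showed 300 or more genes and no more than 10% of its UMIs were mitochondrial.

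The study set 2 samples from mice on a cystine diet, which the protocol calls high in cysteine, against 2 samples from mice on a control diet. CD45, the surface protein of blood-derived immune cells, was used to sort cells isolated from the crypts, and 5′ transcript libraries were made on the 10x Genomics platform. All 4 samples carry the entry Male in the genotype field and Control in the treatment field, so the diet was read from the titles. Strain, age and the number of mice behind a sample are not given in the sources used here. P-values therefore measure only the spread between these samples, which may be technical.

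Monocytes are made in the bone marrow and circulate in a classical and a non-classical form in the mouse. Classical monocytes carry Ly6C and the chemokine receptor CCR2 and enter tissues, and non-classical monocytes patrol the vessel wall and depend on the nuclear receptor NR4A1. In the intestine, monocytes that enter the tissue can become macrophages that make complement C1q, take up dead cells and bacteria and present antigen on MHC class II. Interferon-γ from lymphocytes acts on these cells through transcription factors such as IRF1 and raises guanylate-binding proteins and MHC class II.

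Cystine samples 1 and 2 held 55 and 51 members, and control samples 1 and 2 held 35 and 74. The summed UMIs of the members were 163394 and 178285 in the cystine samples, against 98161 and 224438 in the control samples. The median member held 3175 and 2893 UMIs in the cystine samples, against 2302 and 2969 UMIs in the control samples, and single members ranged from 541 to 9214 UMIs. All kept cells had medians of 1355 to 1758 UMIs. Between any pair of the 4 libraries, 334 to 451 kept barcodes were the same, but 0 of the member barcodes were. Control sample 1 had the fewest members and UMIs.

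Lyz2 encodes the lysozyme of phagocytes, and Lyz1, its neighbour on chromosome 10, encodes the lysozyme of Paneth cells, the antimicrobial secretory cells of the crypt base. Both are shown because the choice of members rests on telling them apart. These are the first 150 coding bases of each gene (bases 1 to 150 of 444, GENCODE transcripts on GRCm38), with capitals at the 14 bases of this stretch where they differ.
Lyz2: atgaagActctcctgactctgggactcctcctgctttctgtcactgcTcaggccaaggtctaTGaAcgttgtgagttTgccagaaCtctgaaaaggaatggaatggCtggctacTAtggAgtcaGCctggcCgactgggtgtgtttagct
Lyz1: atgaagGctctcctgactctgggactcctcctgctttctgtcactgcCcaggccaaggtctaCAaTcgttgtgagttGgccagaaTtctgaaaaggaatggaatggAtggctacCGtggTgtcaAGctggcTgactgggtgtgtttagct
The coding sequences were 95.0% identical, with a longest shared run of 118 bases, so the split of reads between both genes is uncertain. Members held a median of 30 and a maximum of 209 Lyz2 UMIs, whereas 12 of the 215 members held any Lyz1 UMI. At the edge of the choice, 8 members held exactly 3 Lyz2 UMIs and a median of 5.0 Ifitm3 UMIs. The 12 cells that met the rest of the rule with 2 Lyz2 UMIs held a median of 2.5 Ifitm3 UMIs. The Cd74 median was 107.5 UMIs in the cells at 3 and 186.5 UMIs in the cells at 2.

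Many Lyz2-positive barcodes also carried lymphoid transcripts. Of 415 kept barcodes with at least 3 Lyz2 UMIs, 200 had at least 1 UMI of the excluded lymphoid genes. In all, 193 barcodes met every other part of the rule, and they were left out as possible mixtures. They are used below only as a second set of droplets from the same libraries. No doublet caller was run.

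Ifitm3 and Spi1 set the members apart from T cells. Ifitm3, a given marker that the rule did not read, stood at 5520 and 6204 CPM (counts per 1e6 UMIs of the members) in the cystine samples, against 5685 and 7165 CPM in the control samples. A UMI of it was seen in 97.2% of members and in 0.482% of T cells, which had median depths of 1354 to 1752 UMIs. Conventional dendritic cells, defined below, had 1312 and 1301 CPM of Ifitm3 in the cystine samples, against 974 and 0 CPM in the control samples. Spi1, which encodes the myeloid master regulator PU.1, was detected in 89.3% of members and in 0.434% of T cells. Fcer1g and Tyrobp, the signalling chains of Fc and activating receptors, were detected in 97.7% and 99.1% of members, but they do not mark these cells here, as 82.9% and 60.8% of T cells had them too.

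Among genes outside the rule, those with the highest CPM over that of T cells included genes of monocyte secretion and migration. They were chosen for that level, so the values are a description. Fn1, which encodes fibronectin, had 577 CPM in the pooled members and 0.923 CPM in T cells. F13a1, the coagulation factor XIII A chain, had 385 CPM in the members and 0.629 CPM in T cells. Haptoglobin, Hp, had 762 CPM in the members and 1.32 CPM in T cells. The 25 genes chosen this way also held the C-type lectins Clec4a3 and Clec4a1, the inhibitory-type receptor gene Igsf6, the complement gene C3, the receptor gene Lrp1 and Ear2, a ribonuclease gene. Their level over T cells ranged from 282-fold for Wfdc17 to 625-fold for Fn1.

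Apart from the T cell list, given below, markers of other cell types were low or absent in sum, but many members held some of them. At least 1 UMI of the neutrophil list was seen in 75 members (34.9%). For the lists of conventional and plasmacytoid dendritic cells it was 54 (25.1%) and 116 members (54.0%). The neutrophil list had 7 of 11 genes detected, at summed levels of 122 and 286 CPM in the cystine samples, against 214 and 192 CPM in the control samples. Its defining genes S100a9, Retnlg, Cxcr2 and Ly6g had 0 UMIs. S100a8, the partner of S100a9 in the calprotectin dimer, had 12.2 and 107 CPM in the cystine samples, against 0 and 4.46 CPM in the control samples. That is 21 UMIs against 1, a ratio of 19.8 with an exact counting interval of 3.19 to 820, and its level was too low for the test of the diets. The list of conventional dendritic cells, the antigen-carrying cells that prime T cells, had 6 of 9 genes detected. Its sums were 324 and 72.9 CPM in the cystine samples, against 295 and 174 CPM in the control samples, with Xcr1, Ccr7 and Fscn1 at 0. Mast cell genes had 0 and 16.8 CPM in the cystine samples, against 30.6 and 8.91 CPM in the control samples, and Cpa3, Fcer1a and Tpsb2 were at 0. Eosinophil genes amounted to 1 UMI in 1 cell, and the stromal genes Col1a1, Col3a1, Dcn and Cdh5 were at 0. Enterocyte genes summed to 153 and 129 CPM in the cystine samples, against 204 and 22.3 CPM in the control samples. Paneth and goblet cell genes summed to 214 and 342 CPM in the cystine samples, against 81.5 and 192 CPM in the control samples.

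Transcripts of the surrounding T cells were present in most members. The T cell list, with 12 of 13 genes detected, summed to 1040 and 752 CPM in the cystine samples, against 1233 and 432 CPM in the control samples. Its members Gzma and Ccl5 were seen in 114 and 110 of the 215 members, against 92.6% and 98.4% of T cells. B and plasma cell genes, 9 of 9 detected, summed to 312 and 219 CPM in the cystine samples, against 275 and 227 CPM in the control samples. Plasmacytoid dendritic cell genes, 5 of 8 detected, summed to 343 and 449 CPM in the cystine samples, against 397 and 481 CPM in the control samples, with Klk1, Ly6d and Pacsin1 at 0. The part of these transcripts in the results below was not tested.

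**Figure D1:**
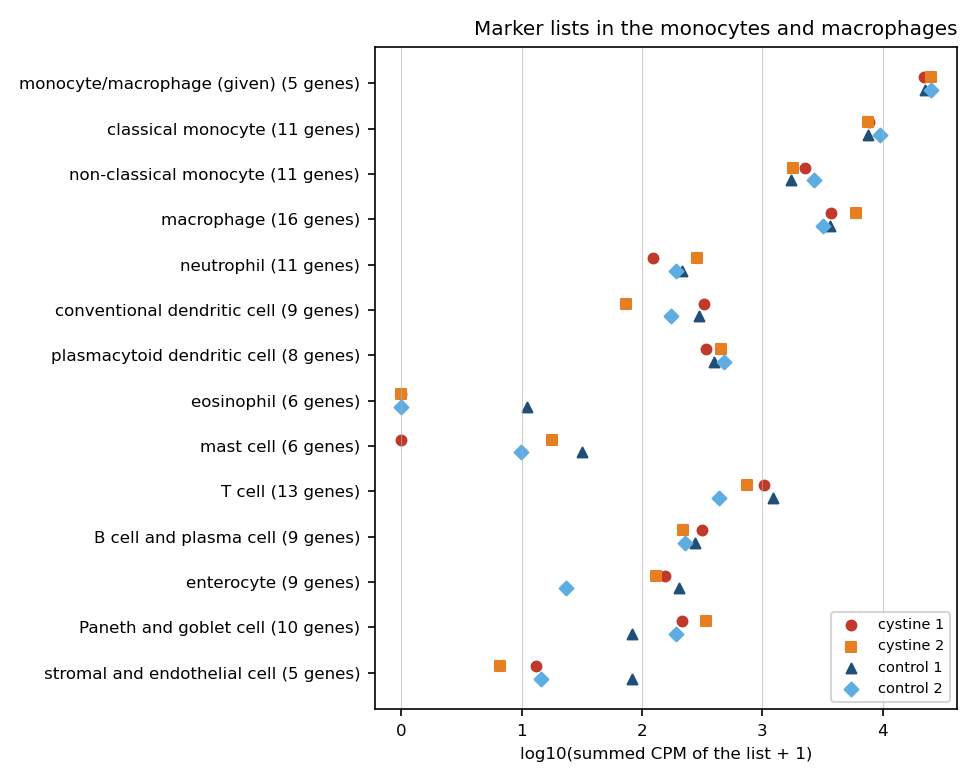
Summed level of each marker list in the monocytes and macrophages, on a log10 axis of CPM plus 1, with 1 point per sample and the cystine samples drawn above the control samples. The monocyte and macrophage lists lie above 1000 CPM in every sample, and the eosinophil and mast cell lists lie between 0 and 30.6 CPM. The T cell list lies at 1040 and 752 CPM in the cystine samples, against 1233 and 432 CPM in the control samples.

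The share of members among kept cells did not differ between the diets beyond the spread of the control samples. It was 0.285% (95% exact binomial interval 0.215% to 0.371%) in cystine sample 1 and 0.308% (0.229% to 0.404%) in cystine sample 2. It was 0.208% (0.145% to 0.289%) in control sample 1 and 0.481% (0.378% to 0.604%) in control sample 2. Both cystine samples lay between the control samples. The means were 0.296% ± 0.016 for cystine and 0.345% ± 0.193 for control (SD, n = 2 each), a difference of -0.0484 percentage points with p = 1.0 in a two-sided exact permutation test. With 2 samples against 2 that test cannot give a p below 0.33. The intervals cover counting error only. The sign of the difference turned over cells without B and plasma cell UMIs, at 0.0019 points. It also turned after each cell was thinned to 1000 UMIs, at 0.0038 points. Thinning changed the members as well as the denominator, with 61 and 52 members in the cystine samples, against 38 and 70 in the control samples.

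The members ranged from classical to non-classical monocytes. Ly6c2, which encodes the Ly6C antigen, was detected in 112 members and Ccr2 in 98. The non-classical genes Ace, which encodes angiotensin-converting enzyme, and Treml4, a receptor that binds late apoptotic cells, were detected in 72 and 74 members. Treml4 was seen in 23.2% of members with Ly6c2 and in 46.6% of members without it. It was seen in 11.7% of members with F13a1 and in 47.1% of members without it. The median depth was 3274 UMIs in cells with Ly6c2 and 2180 UMIs in cells without it. All of these are descriptions over cells of 4 libraries.

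Members were placed in ranges by at least 2 UMIs over Ly6c2, Ccr2, F13a1, Vcan and Fn1, or at least 2 UMIs over Ace, Treml4, Adgre4, Eno3 and Cd300e. These cuts were chosen after the data had been seen, and 79 of the 215 members lay within 1 UMI of a cut. The classical range held 92 members, with 25 and 25 in the cystine samples, against 16 and 26 in the control samples. The non-classical range held 56 members, with 17 and 15 in the cystine samples, against 6 and 18 in the control samples. Both sets of genes were present in 36 members, of which 24 came from control sample 2, with 6 and 5 in the cystine samples and 1 in control sample 1. Neither cut was reached in 31 members, with 7 and 6 in the cystine samples, against 12 and 6 in the control samples. They are called members with neither set below, though some held 1 UMI of a set.

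Among genes that did not set the ranges, some differed between them and some did not. Spn, which encodes CD43, had 322 CPM in the non-classical range and 46.8 CPM in the classical range. Nr4a1, the nuclear receptor on which non-classical monocytes depend, had 636 CPM in the non-classical range and 221 CPM in the classical range. Pglyrp1, which encodes a peptidoglycan-binding protein, had 1271 CPM in the non-classical range and 77.9 CPM in the classical range. Plac8, a gene of the classical list, went against its list with 3617 CPM in the non-classical range and 3198 CPM in the classical range. Ifitm6, an interferon-induced membrane protein gene, had 725 CPM in the non-classical range and 664 CPM in the classical range. The 31 members with neither set stood apart by MHC class II, with 54210.0 CPM of Cd74 and 13165 CPM of H2-Aa, against 7745 and 1356 CPM in the classical range. Their Lyz2, which the rule reads, stood at 5359 CPM, against 20405 CPM in the classical range. Of the 21 members with C1q, they held 9 and the classical range held 8. Those 8 were 3 and 5 in the cystine samples, against 0 and 0 in the control samples. The rest of the 31 had no C1q UMI and too few UMIs of either monocyte set, so the label is less sure for them.

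**Figure D2:**
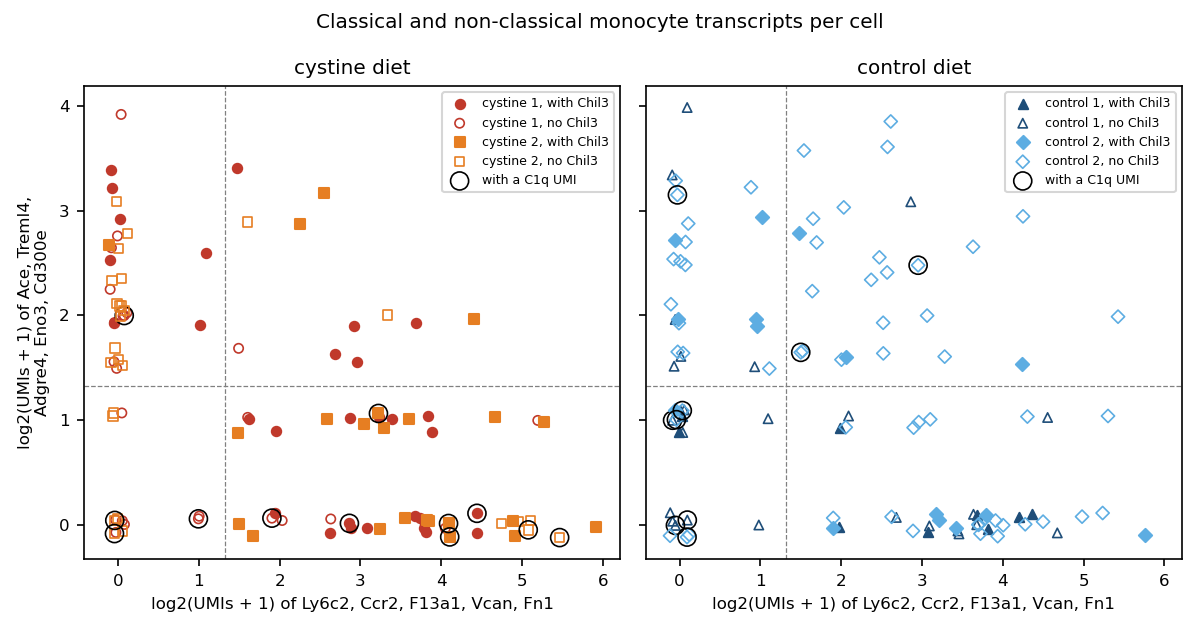
Each symbol is 1 of the 215 members, placed by its UMIs of 5 classical genes (x axis) and of 5 non-classical genes (y axis), both as log2 of UMIs plus 1 with a small jitter, with cystine samples in the left panel. Filled symbols have a Chil3 UMI, ringed symbols have a C1q UMI, and dashed lines are the cuts of 2 UMIs. Filled symbols number 30 and 24 in the cystine samples, against 9 and 15 in the control samples.

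A small group of members carried the macrophage genes C1qa, C1qb and C1qc, the chains of complement C1q. It held 5 and 7 members in the cystine samples, against 3 and 6 in the control samples, or 21 in all, and 18 of them had at least 10 C1q UMIs. As a share of members this was 9.09% and 13.7% in the cystine samples, against 8.57% and 8.11% in the control samples. The difference of 3.07 percentage points had p = 0.33 in the two-sided exact permutation test, the smallest p that test can give. The exact binomial intervals were wide, from 5.70% to 26.3% in cystine sample 2 and from 1.80% to 23.1% in control sample 1. T cells had a C1qb UMI in 0.241% of cells.

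Members with C1q carried other macrophage genes in the pooled sums, which are given with no test since no sample had 10 such cells. Apoe, which encodes the lipid carrier apolipoprotein E, had 4501 CPM with C1q and 1024 CPM without. Ms4a7, a membrane protein gene of tissue macrophages, had 342 CPM with C1q and 29.2 CPM without. Cd63, a tetraspanin gene of late endosomes, had 134 CPM with C1q and 1.72 CPM without, and C3ar1, the receptor of the complement fragment C3a, had 171 CPM with C1q and 20.6 CPM without. Cd74 had 36445 CPM with C1q and 14847 CPM without, whereas Ly6c2 had 390 CPM with C1q and 1053 CPM without. Single members with C1q varied in Cd74. In cystine sample 2, 1 member had 92 C1q UMIs and 1 Cd74 UMI, and in control sample 2, 1 member had 61 and 239. Markers of long-lived resident macrophages were scarce, with 1 UMI of Timd4, 1 UMI of Cd163 and 6 UMIs of Mrc1 over all members.

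Members were also set against conventional dendritic cells of the same libraries. Those numbered 14 and 11 cells in the cystine samples, against 7 and 5 cells in the control samples. Each had at least 2 of Flt3, Zbtb46, Xcr1, Clec9a, Cd209a and Ccr7, at least 3 H2-Ab1 UMIs and none of the lymphoid genes. A cell that also met the rule for members was counted as a member and not as a dendritic cell. By edgeR's quasi-likelihood test with the sample as block and Benjamini-Hochberg adjustment, 258 of 1139 genes passed an adjusted p of 0.05, or 22.7%, with 155 higher in members (13.6%) and 103 lower (9.04%). Genes read by either rule were left out of the test. Without cystine sample 1 the count was 102, and without cystine sample 2 it was 168.

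Higher genes included haptoglobin, the complement C1q chains and matrix genes that had 0 UMIs in the dendritic cells. Hp had 967 and 813 CPM in the members of the cystine samples and 683 and 606 CPM in those of the control samples. Set against the limit of 3 UMIs over all dendritic cells, Hp was at least 38.9-fold higher in members (edgeR adjusted p = 0.00016). C1qb, Fn1 and Tgfbi, the TGF-β-induced matrix protein gene, were at least 32.0-fold, 29.4-fold and 28.9-fold higher. Mgst1, a microsomal glutathione transferase gene, was at least 22.7-fold higher. All 4 samples gave the same direction for each of these genes.

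Lower genes included dendritic cell genes of vitamin A metabolism and antigen loading. Aldh1a2, the retinoic acid-producing enzyme of migratory dendritic cells, had 6.12, 16.8, 10.2 and 0 CPM in the members of cystine samples 1 and 2 and control samples 1 and 2. The dendritic cells of the same samples had 123, 189, 162 and 630 CPM. The log2 fold change of members over dendritic cells was -5.08 (SE 0.70, edgeR adjusted p = 0.000458). H2-Oa and H2-DMb2, which regulate and catalyse peptide loading of MHC class II, had log2 fold changes of -2.88 and -2.36. Apol7c, an apolipoprotein L gene, had a log2 fold change of -4.31 and is taken up again below.

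Between the diets, 22 of 2526 genes tested within members passed an adjusted p of 0.05 by edgeR's quasi-likelihood test, or 0.871%. Of these, 8 rose with cystine (0.317%) and 14 fell (0.554%), and 170 genes had an unadjusted p below 0.05. Without regard to a test, both cystine samples lay above both control samples in 19.0% of the genes tested and below both in 15.7%. The median log2 fold change of all genes tested was -0.004. The calls are few and rest on small sums. DESeq2's Wald test called 2 genes on the same sums (Defa24 and Cmss1). When the 61 cells with exactly 1 lymphoid UMI were let in, edgeR called 3 genes of 3222 (Defa24, Ecm1 and Gbp2). Values below are CPM in each sample, fold changes are log2 of cystine over control with TMM scaling, and losses of a call without 1 sample are named gene by gene. Lyz1 and Apol7c could not be tested without control sample 2, as their sums then fell below the filter on low counts.

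**Figure D3:**
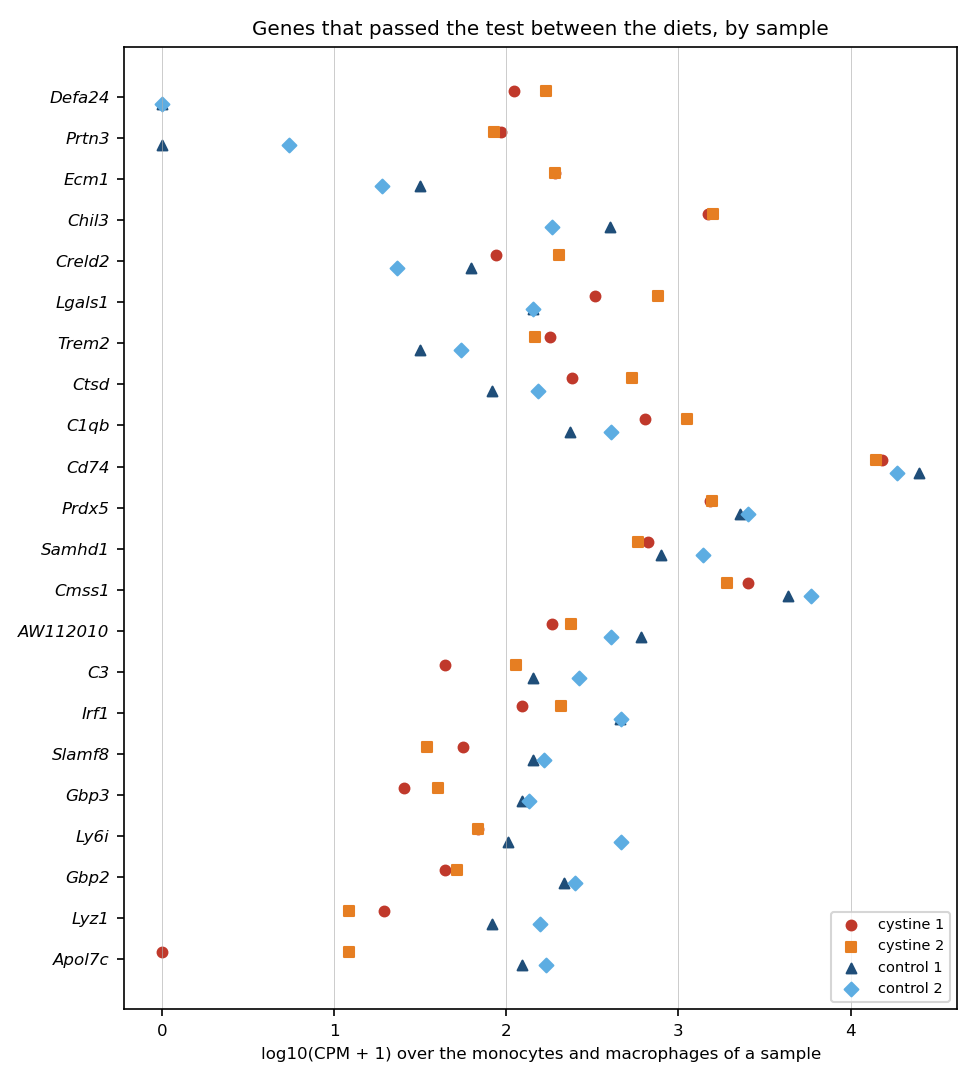
Level of 21 of the 22 genes that passed the test between the diets, with Chil3 added, as log10 of CPM plus 1 in the members of each sample; cystine samples are drawn above control samples and genes are ordered by fold change. For all genes drawn both cystine samples lie on 1 side of both control samples.

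Chil3, which encodes the secreted chitinase-like protein Ym1 of mouse myeloid cells, rose with cystine. It had 1487 and 1582 CPM in the cystine samples, against 397 and 183 CPM in the control samples, from 243 and 282 UMIs against 39 and 41. Both cystine samples lay far above both control samples. Of the 282 UMIs of cystine sample 2, 74 were in 1 cell. Without the top cell of each sample Chil3 had 1368 and 1202 CPM in the cystine samples, against 293 and 140 CPM in the control samples. Because the rule names Chil3, the test used the rule read without it, which chose the same 215 cells; this was added after the data had been seen. The log2 fold change was 2.49 (SE 0.26, edgeR adjusted p = 3.47e-09), and it passed in all 13 alternatives run, with 1.90 to 3.04, DESeq2's Wald test among them.

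More members held Chil3, and they held more of it. A Chil3 UMI was present in 30 of 55 and 24 of 51 members of the cystine samples, or 54.5% and 47.1%. In the control samples it was present in 9 of 35 and 15 of 74 members, or 25.7% and 20.3%. The exact intervals ran from 40.6% to 68.0% and 32.9% to 61.5% in the cystine samples and from 12.5% to 43.3% and 11.8% to 31.2% in the control samples. Thinned to 1000 UMIs a cell, 35.3% and 39.1% of members had Chil3 in the cystine samples, against 21.2% and 8.11% in the control samples. Thinning left out 4 and 5 shallower members of the cystine samples, against 2 and 0 of the control samples. Members with Chil3 held a median of 5.0 and 7.5 Chil3 UMIs in the cystine samples, against 4.0 and 2.0 in the control samples. T cells held a Chil3 UMI in at most 0.136% of cells of a sample. The order of the diets was the same there at far lower levels, with 3.95 and 4.26 CPM in the cystine samples, against 2.23 and 0.397 CPM in the control samples. Plasmacytoid dendritic cells had 10.1 and 10.2 CPM of Chil3 with cystine, against 0 and 4.55 CPM on the control diet. The part of RNA from outside the cell in these values was not tested.

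The genes seen beside Chil3 are given as a description over pooled cells. Of the 78 members with Chil3, 67.9% had Ly6c2, against 43.1% of the 137 members without Chil3. Fn1 was seen in 56.4% of members with Chil3 and in 24.8% of those without. Treml4 was seen in 26 of the 78 members with Chil3 and in 48 of the 137 without. The median depth was 3104.5 UMIs with Chil3 and 2614 UMIs without. Within the classical range Chil3 had 2457 and 1580 CPM in the cystine samples, against 864 and 193 CPM in the control samples. In members with both sets of genes it had 1412 and 5264 CPM in the cystine samples, against 0 and 78.7 CPM in the control samples. Control sample 1 had 1 such cell. Of the 102 Chil3 UMIs of these members in cystine sample 2, 74 were in 1 cell. The diets kept the same order in both of these ranges. In the non-classical range the diets overlapped, with 625 and 43.0 CPM in the cystine samples, against 0 and 193 CPM in the control samples. In the members with neither set the order was the opposite, with 0 and 0 CPM in the cystine samples, against 48.5 and 538 CPM in the control samples, from 12 UMIs in all. Ly6c2 itself had 410 and 1054 CPM in the cystine samples, against 978 and 1310 CPM in the control samples, which overlap (log2 fold change -0.69, edgeR adjusted p = 0.374).

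Other secreted or granule genes rose beside it. Ecm1, extracellular matrix protein 1, had 190 and 191 CPM in the cystine samples, against 30.6 and 17.8 CPM in the control samples. Its log2 fold change was 3.05 (SE 0.48, edgeR adjusted p = 4.4e-05), and the groups did not overlap. Of the 31 Ecm1 UMIs of cystine sample 1, 15 were in 1 cell. Prtn3, the granule protease proteinase 3, had 91.8 and 84.1 CPM in the cystine samples, against 0 and 4.46 CPM in the control samples. That is 30 UMIs against 1, a ratio of 28.3 with an exact counting interval of 4.71 to 1156. The call of Prtn3 (adjusted p = 0.00691) was lost without cystine sample 1 or cystine sample 2, with 0.646 and 0.877.

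Lgals1, which encodes the sugar-binding protein galectin-1, had 324 and 757 CPM in the cystine samples, against 143 and 143 CPM in the control samples. Both control samples lay below both cystine samples, from 14 and 32 UMIs. The log2 fold change was 1.89 (SE 0.34, edgeR adjusted p = 0.000407). Without cystine sample 2 it was 1.16, with an adjusted p of 0.336. Creld2, a gene induced by stress of the endoplasmic reticulum, had 85.7 and 202 CPM in the cystine samples, against 61.1 and 22.3 CPM in the control samples (log2 fold change 2.01, adjusted p = 0.0297). Its call was lost without cystine sample 2 or control sample 2, at 1.19 in either case.

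Of the macrophage list, 2 of the 11 genes tested rose (0.317% of all genes tested rose), 0 fell and 9 did not pass, and the median of the 11 was 0.45 (log2). C1qb had 636 and 1116 CPM in the cystine samples, against 234 and 405 CPM in the control samples (log2 fold change 1.36, SE 0.27, edgeR adjusted p = 0.00195). These UMIs came from few cells, namely 5 and 7 in the cystine samples and 3 and 6 in the control samples. Members with C1q lay in the classical range only in the cystine samples, with 3 and 5 such cells, against 0 and 0 in the control samples. The call was lost without cystine sample 2, with 0.90 and an adjusted p of 0.491. C1qa had a log2 fold change of 1.06 (adjusted p = 0.0944) and C1qc of 0.60 (adjusted p = 0.83).

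Trem2, the lipid-sensing receptor of macrophages, had 177 and 146 CPM in the cystine samples, against 30.6 and 53.5 CPM in the control samples. The log2 fold change was 1.77 (SE 0.42, edgeR adjusted p = 0.0196) and the groups did not overlap. Without cystine sample 1 the adjusted p was 0.142, and without control sample 2 it was 0.0529. Ctsd, which encodes the lysosomal protease cathepsin D, had 239 and 533 CPM in the cystine samples, against 81.5 and 151 CPM in the control samples (log2 fold change 1.59, adjusted p = 0.0098). Without cystine sample 2 it stood at 0.90 (adjusted p = 0.851), and without control sample 1 the adjusted p was 0.056. Ctsd was the 1 gene of the 16 lysosomal genes tested that passed, beside 0.317% of all genes tested that rose. Of the 16, 12 lay above 0, with a median of 0.30, beside -0.004 for all genes tested.

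Of the Paneth cell genes Defa24 rose and Lyz1 fell. Defa24, an α-defensin gene of Paneth cells, had 110 and 168 CPM in the cystine samples and 0 UMIs in both control samples. Against the limit of 3 UMIs over the control members it was at least 15.1-fold higher (edgeR adjusted p = 1.1e-05; 0.304 without cystine sample 2). A UMI of Defa24 was seen in 6.98% of members and in 7.25% of T cells, which had lower median depths. Whether the members express it was not tested. The part of RNA from outside the cell was not tested. The defensin gene AY761184 had 18 UMIs over both cystine samples, against 0 over both control samples. Defa22, another of these, had 7 UMIs against 0, and both were too low for the test. Plasmacytoid dendritic cells of the same samples had 132 and 281 CPM of Defa24 with cystine, against 1.69 and 1.52 CPM on the control diet. Lyz1 had 18.4 and 11.2 CPM in the cystine samples, against 81.5 and 156 CPM in the control samples (log2 fold change -3.10, adjusted p = 0.00169). T cells showed the opposite order for Lyz1, with 39.9 and 36.4 CPM in the cystine samples, against 0.253 and 0.253 CPM in the control samples. Of the 35 Lyz1 UMIs of control sample 2 members, 21 were in 1 cell, and without the top cell of each sample the groups overlapped.

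Gbp2, Gbp3 and Irf1 fell with cystine. Gbp2 and Gbp3 encode guanylate-binding proteins, GTPases that attack membranes around intracellular microbes. Irf1 encodes a transcription factor of the interferon-γ response. The promoters of Gbp2, Gbp3 and Irf1 are shown, as these genes fell together (RefSeq, GRCm38.p6, plus strand, 250 bases before to 50 bases after the gene's start). Capitals mark TTTCNNTTTC, a form of the interferon-stimulated response element searched on both strands (GAAANNGAAA on the other), and TTCNNNGAA, the gamma-activated sequence, which reads the same on both strands.
Gbp2 promoter, chr3:142620413-142620712: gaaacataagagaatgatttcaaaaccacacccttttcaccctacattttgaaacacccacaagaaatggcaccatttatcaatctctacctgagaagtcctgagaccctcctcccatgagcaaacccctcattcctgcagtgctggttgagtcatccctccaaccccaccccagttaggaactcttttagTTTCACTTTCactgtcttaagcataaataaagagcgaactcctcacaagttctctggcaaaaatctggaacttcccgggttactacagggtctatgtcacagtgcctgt
Gbp3 promoter, chr3:142559794-142560093: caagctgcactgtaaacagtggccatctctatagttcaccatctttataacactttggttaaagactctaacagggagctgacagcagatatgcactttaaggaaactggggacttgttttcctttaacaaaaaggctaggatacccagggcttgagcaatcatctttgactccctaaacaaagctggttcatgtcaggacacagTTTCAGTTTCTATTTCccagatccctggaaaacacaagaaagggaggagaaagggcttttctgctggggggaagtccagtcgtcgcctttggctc
Irf1 promoter, chr11:53769764-53770063: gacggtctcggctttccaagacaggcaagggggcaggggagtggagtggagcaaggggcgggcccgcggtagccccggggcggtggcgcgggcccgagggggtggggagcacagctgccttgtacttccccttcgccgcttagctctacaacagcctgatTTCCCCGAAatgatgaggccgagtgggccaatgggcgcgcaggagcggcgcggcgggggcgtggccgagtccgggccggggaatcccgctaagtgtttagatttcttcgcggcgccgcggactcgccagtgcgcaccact
In Gbp3 the capitals hold 2 overlapping matches, and no match of one motif overlaps a match of the other in these 3 promoters. Of the 14 genes that fell, 11 matched a promoter in the RefSeq table. TTTCNNTTTC was found in 4 of them (Apol7c, Gbp2, Gbp3 and Slamf8), and in 3.49% of 27025 promoters of the same length. TTCNNNGAA was found in 2 of the 11 (Irf1 and Samhd1), and in 8.47% of all promoters. Of the 7 matched promoters among Chil3 and the 8 genes that rose, that of Chil3 held TTCNNNGAA and 0 held TTTCNNTTTC. A match is only a run of letters and says nothing of binding.

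Gbp2 had 42.8 and 50.5 CPM in the cystine samples, against 214 and 250 CPM in the control samples. The groups were far apart, although 11 of the 21 UMIs of control sample 1 were in 1 cell. The log2 fold change was -2.34 (SE 0.39, edgeR adjusted p = 0.000114), and it passed in 13 of 14 alternatives, DESeq2's Wald test being the exception at 0.111. Gbp3 had 24.5 and 39.3 CPM in the cystine samples, against 122 and 134 CPM in the control samples (log2 fold change -2.01, adjusted p = 0.0225). Its call was lost without cystine sample 1 (0.137) or control sample 2 (0.591).

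Irf1 had 122 and 208 CPM in the cystine samples, against 458 and 463 CPM in the control samples, and 23 of the 45 UMIs of control sample 1 were in 1 cell. Its log2 fold change was -1.50 (SE 0.31, edgeR adjusted p = 0.00333). Without cystine sample 1 the adjusted p was 0.153, and with at least 5 Lyz2 UMIs it was 0.226.

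Irf1 in the classical range had 170 and 185 CPM in the cystine samples, against 747 and 454 CPM in the control samples. In the non-classical range it had 81.5 and 215 CPM in the cystine samples, against 295 and 386 CPM in the control samples. In the members with neither set the diets overlapped, with 36.5 and 224 CPM in the cystine samples, against 194 and 323 CPM in the control samples. These values are descriptions.

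T cells of the same samples, which carry these transcripts too, showed the same order at a smaller size. Their Gbp2 stood at 59.0 and 59.1 CPM in the cystine samples, against 62.8 and 76.4 CPM in the control samples. Their Irf1 stood at 352 and 367 CPM in the cystine samples, against 379 and 376 CPM in the control samples. A UMI of Gbp2 was seen in 23.3% of members and 9.95% of T cells, and a UMI of Irf1 in 46.5% of members and 42.8% of T cells. The part of T cell RNA in the members' values was not tested.

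Most of the wider interferon list did not pass. Of its 16 genes tested, 0 rose, 2 fell (Gbp2 among them) and 14 did not pass, beside 0.554% of all genes tested that fell. Of the 16, 8 lay below 0, and their median was -0.26 (log2). Isg15, a ubiquitin-like protein gene induced mainly by type I interferon, had 294 and 505 CPM in the cystine samples, against 275 and 379 CPM in the control samples (log2 fold change 0.22, edgeR adjusted p = 0.969). Ifitm2, an antiviral membrane protein gene, had 2056 and 1739 CPM in the cystine samples, against 1182 and 1568 CPM in the control samples (0.42, adjusted p = 0.617). Irf7, a factor of type I interferon induction, had a log2 fold change of -0.58 (adjusted p = 0.732). Ifi47, an interferon-inducible GTPase gene, had -1.10 (adjusted p = 0.127). Cxcl10, a chemokine for activated T cells, had 0 and 61.7 CPM in the cystine samples, against 214 and 93.6 CPM in the control samples (-2.11, adjusted p = 0.0646). It was detected in 9 members and passed in 6 of the alternatives.

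Slamf8, C3 and Samhd1 fell as well. Slamf8, a receptor gene of the SLAM family of macrophages, had 55.1 and 33.7 CPM in the cystine samples, against 143 and 165 CPM in the control samples (log2 fold change -1.84, edgeR adjusted p = 0.0158). Its call was lost without cystine sample 2 (0.343) or control sample 2 (0.332). C3, the central complement protein, had 42.8 and 112 CPM in the cystine samples, against 143 and 263 CPM in the control samples (-1.48, adjusted p = 0.0466). Without control sample 2 it stood at -0.90 (adjusted p = 0.85), and without cystine sample 1 at -0.98 (0.605). Samhd1, which breaks down the nucleotides that viruses need, had 667 and 578 CPM in the cystine samples, against 795 and 1386 CPM in the control samples (-0.87, adjusted p = 0.0493). Without control sample 2 it stood at -0.40 (0.955), and its adjusted p was 0.491 without cystine sample 2 and 0.078 without cystine sample 1.

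Ly6i, a gene of the Ly6 surface protein family, had 67.3 and 67.3 CPM in the cystine samples, against 102 and 463 CPM in the control samples (log2 fold change -2.23, edgeR adjusted p = 0.00131). The fall rests on control sample 2; without it the value was -0.64, with an adjusted p of 0.972. AW112010 had 184 and 236 CPM in the cystine samples, against 601 and 405 CPM in the control samples (-1.25, adjusted p = 0.0195). T cells had a UMI of it in 92.7% of cells, against 43.3% of members, and the call was lost without cystine sample 1 (0.237) or control sample 1 (0.232). Apol7c had 0 and 11.2 CPM in the cystine samples, against 122 and 169 CPM in the control samples, from 0 and 1 cells against 3 and 5. That is 2 UMIs against 50, a ratio of 0.0378 with an exact counting interval of 0.00445 to 0.144 (edgeR adjusted p = 2.53e-05). Dendritic cells had 494 and 105 CPM of Apol7c in the cystine samples, against 1678 and 2837 CPM in the control samples.

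Cmss1, a gene linked to ribosome biogenesis, had 2534 and 1907 CPM in the cystine samples, against 4299 and 5890 CPM in the control samples (log2 fold change -1.23, SE 0.18, edgeR adjusted p = 1.1e-05). Of the 422 UMIs of control sample 1, 256 were in 1 cell, and without the top cell of each sample the groups overlapped. Cmss1 overlaps Filip1l on the other strand in the GENCODE annotation, and the strand setting of the counting is not given in the sources used here, so their reads may be mixed. The same holds for Prtn3 with Plppr3, Prdx5 with Trmt112 and Irf1 with Gm17334, and Ctsd overlaps Gm49369 on its own strand.

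Of the 8 MHC class II genes tested 1 fell, beside 0.554% of all genes tested, and 0 rose. In all, 7 of the 8 lay below 0, and their median was -0.46 (log2), beside -0.004 for all genes tested. Cd74, the invariant chain that guides MHC class II to the endosome, had 15227 and 13966 CPM in the cystine samples, against 25009.9 and 18713 CPM in the control samples. Its log2 fold change was -0.61 (SE 0.15, edgeR adjusted p = 0.0195), and the groups did not overlap. Without control sample 1 it stood at -0.38, with an adjusted p of 0.391. That sample had 12 of its 35 members, or 34.3%, in the range with neither monocyte set, where Cd74 was high. The other 3 samples had 8.11% to 12.7%. Within the non-classical range Cd74 had 6383 and 1160 CPM in the cystine samples, against 24074 and 14509 CPM in the control samples. Members with both sets had 11205 and 8205 CPM, against 16191 (1 cell) and 21320 CPM. In the classical range and in members with neither set the diets overlapped. The part of the ranges in the fall of Cd74 was not tested. H2-DMb1, part of the peptide-loading HLA-DM homologue, had a log2 fold change of -0.96 (adjusted p = 0.0887). H2-Aa, a chain of the presenting molecule, had 3941 and 2962 CPM in the cystine samples, against 5654 and 3484 CPM in the control samples, which overlap (-0.42, adjusted p = 0.557).

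Among genes that handle cystine and its products, 1 passed the test. Of the 29 genes for cystine uptake, glutathione, thioredoxin and iron storage, 24 had a UMI and 14 were tested. Of those, 0 were higher and 1 was lower, beside 0.554% of all genes tested that were lower. Their median log2 fold change was -0.0065. Prdx5, a peroxiredoxin that removes hydrogen peroxide, had 1518 and 1565 CPM in the cystine samples, against 2272 and 2531 CPM in the control samples. Its log2 fold change was -0.67 (SE 0.18, edgeR adjusted p = 0.0493), with no overlap between the groups, but each of the 4 runs without 1 sample lost the call, at -0.74 to -0.60. Gpx1, the selenium enzyme glutathione peroxidase 1, had 7326 and 5996 CPM in the cystine samples, against 6092 and 7294 CPM in the control samples (-0.04, SE 0.16, adjusted p = 0.989). Slc7a11, the cystine importer, had 4 UMIs in 2 members, all in the cystine samples. The transulfuration and cysteine oxidation genes Cth, Cbs and Cdo1 and the glutathione-degrading Chac1 and Ggt1 had 0 UMIs. Of the 9 genes of the amino acid shortage response 2 were tested and 0 passed, with Atf4, its transcription factor, at -1.16 (adjusted p = 0.752) from 34 UMIs.

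Effector lists held no call. The NADPH oxidase of phagocytes had 0 of 6 genes past the test and a median of -0.49, with Cybb, its catalytic chain, at 728 and 707 CPM in the cystine samples, against 754 and 1252 CPM in the control samples (-0.55, edgeR adjusted p = 0.531). The S100 and annexin list had 0 of 7 past the test, all 7 above 0 and a median of 0.39. Of 32 cytokine and chemokine genes, 22 had a UMI, 5 were tested and 0 passed. Il1b had 196 and 348 CPM in the cystine samples, against 407 and 125 CPM in the control samples (0.16, adjusted p = 0.98). The chemokine Ccl2 had 701 CPM in cystine sample 2 and 0, 0 and 4.46 CPM in cystine sample 1 and control samples 1 and 2, from 6 cells in all. Il6, Il10, Il12b, Il23a and Nos2 had 0 UMIs. Over 664278 UMIs, 0 UMIs allow up to 4.52 CPM.

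**Figure D4:**
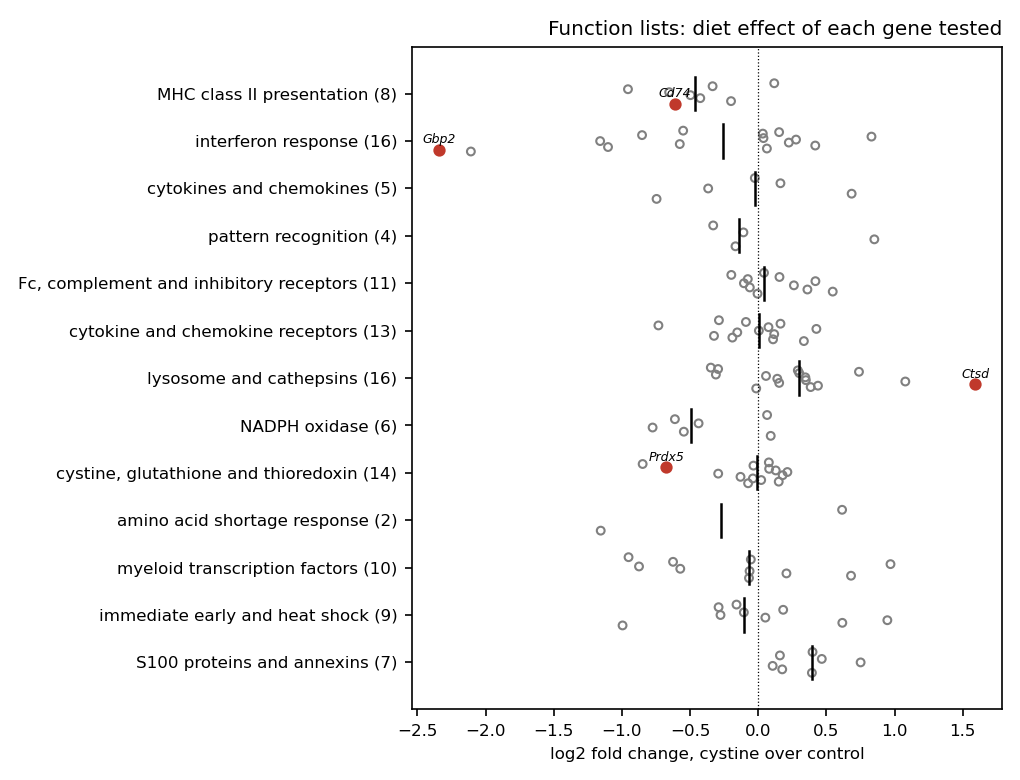
Log2 fold change, cystine over control, of each gene tested in 13 function lists, with the number of genes tested in brackets; filled points passed an adjusted p of 0.05 and are named, open points did not pass, and the bar is the list's median. Of the interferon list 1 gene is not drawn, though its median covers it. The MHC class II and NADPH oxidase medians lie at -0.46 and -0.49 and the S100 and annexin median at 0.39, beside -0.004 for all genes tested.

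Classical and non-classical monocyte lists, pattern recognition receptors, Fc and complement receptors, cytokine receptors, myeloid transcription factors and immediate early genes had 0 calls each. Their medians ran from -0.17 for the non-classical list, over 10 genes, to 0.10 for the classical list, over 11 genes. Proliferation genes summed to 18.4 and 39.3 CPM in the cystine samples, against 367 and 17.8 CPM in the control samples, and none of the 8 was tested. The high sum of control sample 1 came with 132 CPM of Stmn1, a tubulin regulator of dividing cells.

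Whether these differences were particular to the members was tested against plasmacytoid dendritic cells, the interferon-producing cells found by Siglech, with 388 and 458 cells in the cystine samples and 215 and 195 in the control samples. The diet effect differed between both cell types for 5 of 5909 genes (0.0846%) by edgeR's interaction test, with 3 effects higher in members (0.0508%) and 2 lower (0.0338%). These were Lgals1, Cmss1, Lyz1, Ifitm1 and Ccl4, and of these Lgals1, Cmss1 and Lyz1 also passed within members. Lgals1 had 912 and 1191 CPM in the plasmacytoid cells of the cystine samples, against 1132 and 1164 CPM in those of the control samples (difference of log2 fold changes 1.97, adjusted p = 2.46e-05). For Irf1 the difference was -1.27 (adjusted p = 0.135), for Gbp2 -2.46 (adjusted p = 0.732) and for Cd74 -0.66 (adjusted p = 0.072). Of the genes called within members, only Lgals1, Cmss1 and Lyz1 passed the interaction test. For the rest, it was not shown that the change was particular to the members. Chil3 was not among the genes of this test, since the rule reads it.

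The 193 barcodes left out for lymphoid UMIs gave a second reading from the same libraries. They were 65 and 41 barcodes in the cystine samples, against 45 and 42 in the control samples. Of the 9 genes that were higher with cystine (Chil3 included), 5 had both cystine samples above both control samples here, as did 23.5% of the 2526 genes tested. Chil3 is among these 5 and not among the 2526 genes. The rule for these barcodes read Chil3, so its values here are only a description. With up to 1 lymphoid UMI allowed, the rule gave 78 cells in cystine sample 1, and 77 when read without Chil3. Of the 14 that were lower, 8 had both cystine samples below, as did 16.0% of the genes tested. Chil3 had 891 and 1095 CPM in the cystine samples, against 565 and 134 CPM in the control samples. Gbp2 had 96.7 and 67.8 CPM in the cystine samples, against 129 and 164 CPM in the control samples. Irf1 had 161 and 240 CPM in the cystine samples, against 313 and 352 CPM in the control samples. Gbp3, Slamf8, AW112010, Lyz1 and Apol7c were also lower in both cystine samples.

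Other calls did not recur there. C1qb had 185 and 62.5 CPM in the cystine samples, against 405 and 591 CPM in the control samples, which is the opposite order. Cmss1 had 2805 and 4222 CPM in the cystine samples, against 2798 and 2388 CPM in the control samples, again the opposite order. Cd74 had 16909 and 10903 CPM in the cystine samples, against 16183 and 16698 CPM in the control samples, and the groups overlapped. Trem2, Ctsd, Ecm1, Prdx5, Samhd1, C3 and Ly6i overlapped as well. These barcodes hold T cell RNA, with Cd3e, Cd3d and Cd3g at 0.118% and 0.162% of UMIs in the cystine samples, against 0.252% and 0.312% in the control samples, and the part of that RNA in these values was not tested.

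**Figure D5:**
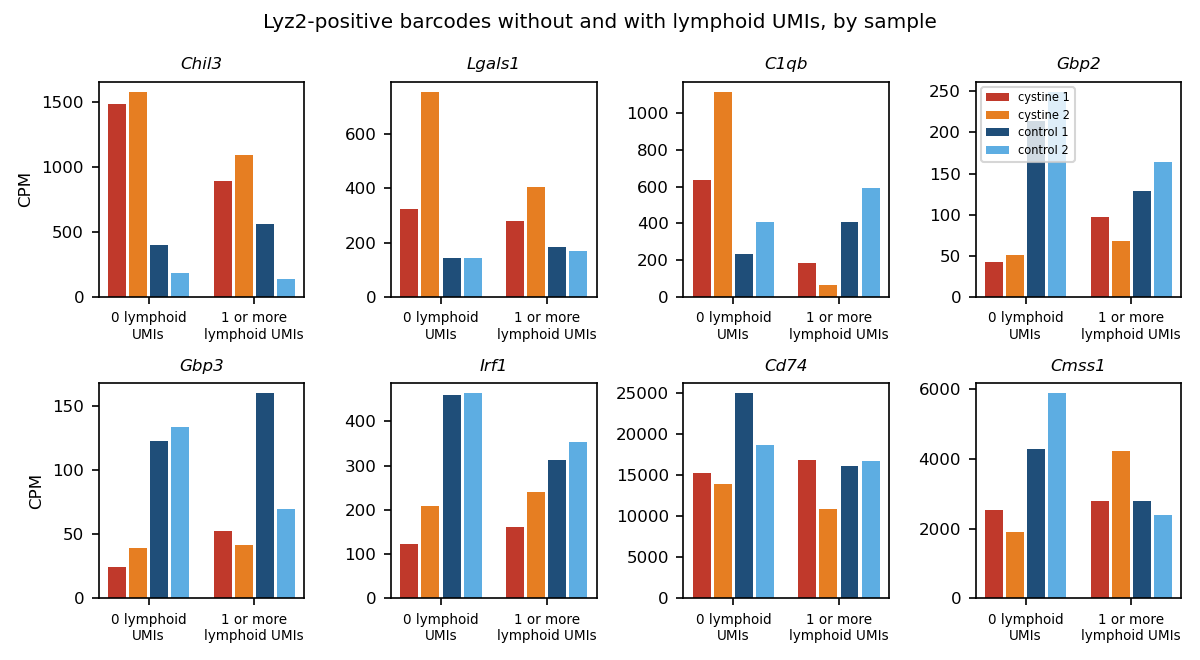
Level in CPM of 8 genes in each sample, for the 215 members (0 lymphoid UMIs) and for the 193 barcodes that met the rest of the rule but had 1 or more lymphoid UMIs, with bars for cystine samples left of control samples. Chil3 and Lgals1 are higher and Gbp2, Gbp3 and Irf1 lower with cystine in both sets, whereas C1qb and Cmss1 take opposite orders in the 2 sets.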

How the data were processed

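The deposited matrices hold raw UMI counts per gene and barcode, per the file headers. Build GRCm39, Cell Ranger 3.1.0 and Seurat 4.0.1 are listed in the submitters' processing notes; a different version, 7.0.1, stands in the matrix headers. The 4 libraries held 27229695 to 31301936 UMIs. Counts of a sample's members were summed and tested with edgeR 4.0.16 (filterByExpr, TMM, glmQLFit, glmQLFTest) on R 4.3.3, with Benjamini-Hochberg adjustment over all genes tested. The 11 genes of the rule stayed out of the test. DESeq2 1.42.0 was an alternative. The tests were tried on simulated sums with a fixed spread between samples. Those sums did not model genes with many UMIs in a single cell, so they do not vouch for the calls. CPM are counts per 1e6 UMIs of the summed cells. Members and gene lists were chosen with earlier results of these data known. Named genes passed the test with both cystine samples on 1 side of both control samples and a group mean of at least 20 CPM. Also named are list members with the highest CPM or past the test, with a few chosen after their values were seen, such as near misses and genes at 0. Mx1 and Clec7a, from the lists, are not analysed here, and single genes counted in the totals are not reported here by name. T cells had at least 2 UMIs of Cd3e, Cd3d and Cd3g and none of Cd79a and Siglech. Plasmacytoid dendritic cells had at least 2 Siglech UMIs. Promoters came from the RefSeq table, on build GRCm38.p6; no coordinates of the deposited files are given.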

Additional observations from a re-analysis of the deposited data

Results flagged for a closer look

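The diet effect, as log2 fold change of cystine over control, differed between monocytes and macrophages and plasmacytoid dendritic cells for 5 genes by edgeR's interaction test with Benjamini-Hochberg adjustment. For Lgals1 the difference was 1.97 (adjusted p = 2.46e-05), and without cystine sample 1 or 2 the adjusted p was 0.772 or 0.157. For Cmss1 it was -1.12 (adjusted p = 0.000136), and the call was lost without cystine sample 1, cystine sample 2 or control sample 2. For Lyz1 it was -9.54 (adjusted p = 2.33e-06), with 0 UMIs in the plasmacytoid cells of both control samples; it was lost without cystine sample 1 or control sample 2. For Ifitm1 it was 6.83 (adjusted p = 0.000134), from 32 and 10 UMIs in the members of the cystine samples, against 0 and 1 in those of the control samples. It was lost without cystine sample 1 or control sample 2. For Ccl4 it was 9.11 (adjusted p = 0.00111), from 0 and 22 UMIs in the members of the cystine samples, against 0 and 0 in those of the control samples. It was lost without cystine sample 1, cystine sample 2 or control sample 2. Fitted values of genes with 0 UMIs in a group depend on the prior count and are no measure of size.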

How the results depend on the processing

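Of the 26 genes followed through the diet test within members, 0 turned round in any alternative that could test them. Lyz1 and Apol7c were not tested without control sample 2, nor Defa24 under stricter cell filters. The count of 22 genes became 42 with no filter on low counts, 2 with DESeq2's Wald test, and 3 when 1 lymphoid UMI was allowed, an alternative added after seeing the data. It ran from 20 to 42 without 1 sample, of which 11 to 18 genes were among the 22. DESeq2 size factors gave 24, at least 5 Lyz2 UMIs 16, stricter cell filters 18, and omission of members with lymphocyte or neutrophil UMIs 25 or 20. With the replicate number as a block the count was 25, with all 22 among them. Deviations of same-numbered samples had a correlation of -0.0278. With such small sums this cannot decide whether they were paired, and the labels state no pairing. Against conventional dendritic cells the 258 genes became 456 with no filter and 102 to 326 without 1 sample. The interaction test called 0 to 15 genes without 1 sample. The difference in the share of members was 0.00189 points over cells without B and plasma cell UMIs and 0.00377 points after thinning, in place of -0.0484, and ran from -0.185 to 0.0883 without 1 sample. The difference in the share with C1q ran from 0.751 to 5.39 points without 1 sample. The planned test of members with C1q against those without was not run, as fewer than 10 such cells came from each sample. Where 1 sample was left out, the lone sample of its diet was assumed to vary like the other diet's. The cause of these changes was not tested. Depth limits these results, since members of control sample 1 held 98161 UMIs in 35 cells.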
